A study of Mus musculus with 2 samples.

Results

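Interferon response genes are the transcripts that cells switch on after interferons, the cytokines of antiviral defence, bind their receptors, together with the genes that sense viral nucleic acid and carry the signal. The 37 genes described here form a named list that was drawn up with earlier results of these data known, and they were found by exact match of the platform's gene symbol, with no threshold on a measured value. Of the 37, 35 had at least 1 probe set (a group of short probes for a transcript) of their own among the 18193 genes so represented on the array. Isg15 and Ifi44 had none, so they have no signal here and enter only the promoter search. The 35 genes had 57 probe sets, 21 genes with 1 and 14 with more than 1. For a gene with several, the probe set brightest over both arrays (mean log2 signal) gave its value, and the others serve as a check.

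The study isolated glomeruli, the capillary tufts that filter blood in the kidney, from male KK/Ta mice aged 20 weeks. KK/Ta is an inbred strain prone to obesity and type 2 diabetes, and every animal carried that background. One group received a high-fat diet (HFD) and the other a normal chow diet (Chow), and each is represented by 1 Affymetrix Mouse Genome 430 2.0 array of total RNA, with no replicate. The design text mentions 3 mice without saying how many stood behind each array or whether their RNA was pooled, so no p-value, SD or standard error can be given for a difference between the diets.

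Type I interferons act through a receptor made of Ifnar1 and Ifnar2, and interferon gamma through one that contains Ifngr1. Janus kinases then activate STAT proteins. Stat2 and Irf9 belong to a complex that binds the interferon-stimulated response element (ISRE) in promoters, whereas the gamma-activated site (GAS) serves the response to interferon gamma. Irf7 amplifies the type I response, and Usp18 restrains it at the receptor. Resident macrophages, endothelial cells and tubule cells of the kidney all can respond to interferon.

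Promoter sequence shows which of these genes carry the letters of an ISRE near their start. RefSeq promoter windows (GRCm38.p6, 250 bases before to 50 after a transcription start) were found for 30 of the 37 genes, 35 windows in all. Usp18, Dhx58, Oas2, Mx1, Mx2, Parp14 and Rtp4 were not among them. The ISRE core searched, on both strands, was GAAANNGAA, and neighbouring matches may overlap. It lay in 17 of 35 windows, against 8.56% of 32851 windows of the same length in the table. The GAS letters TTCNNNGAA, which read the same on both strands, lay in 10 of the 35 windows, against 8.30% of all windows. A match describes letters and not a working site.

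The stretches below are shown because they span the range of differences between the diets: Xaf1 and Bst2 were higher in HFD, Ifit1 was close to the list's own median, and Irgm1 had the lowest difference of the list. Capitals mark ISRE core matches on either strand. Each run reads 5′ to 3′ on the gene's strand and ends before the outermost start that RefSeq gives for the gene.
Xaf1 (no match, 82 bases, chr11:72301379-72301460, plus strand): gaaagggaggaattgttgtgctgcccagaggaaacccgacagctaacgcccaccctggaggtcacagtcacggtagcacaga
Bst2 (2 overlapping matches, 160 bases, chr8:71537473-71537632, minus strand): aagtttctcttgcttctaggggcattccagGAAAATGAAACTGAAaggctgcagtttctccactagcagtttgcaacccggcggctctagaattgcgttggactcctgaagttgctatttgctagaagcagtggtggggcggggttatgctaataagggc
Ifit1 (3 matches, 160 bases, chr19:34640729-34640888, plus strand): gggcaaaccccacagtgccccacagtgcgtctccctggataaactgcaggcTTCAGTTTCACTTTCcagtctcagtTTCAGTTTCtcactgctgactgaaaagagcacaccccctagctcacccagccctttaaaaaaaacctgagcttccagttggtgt
Irgm1 (2 overlapping matches, 160 bases, chr11:48871421-48871580, minus strand): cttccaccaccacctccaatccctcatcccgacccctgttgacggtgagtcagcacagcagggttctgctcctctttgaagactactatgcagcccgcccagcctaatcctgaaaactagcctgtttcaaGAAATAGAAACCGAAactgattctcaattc
Matches in the window of Bst2 began at -130 and -124 from its start, those of Irgm1 at -30 and -24, and those of Ifit1, on the other strand, at -109, -103 and -84. The whole window of Xaf1 held none, nor did those of Oasl1, Oasl2 and Irf7, and Usp18 had no window. A relation between matches and the differences between the diets was not tested. Genes with an ISRE core match and a measured difference (14 genes) had a median difference between the diets of 0.13 log2 units, and those without (13 genes) of 0.24.

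**Figure D1:**
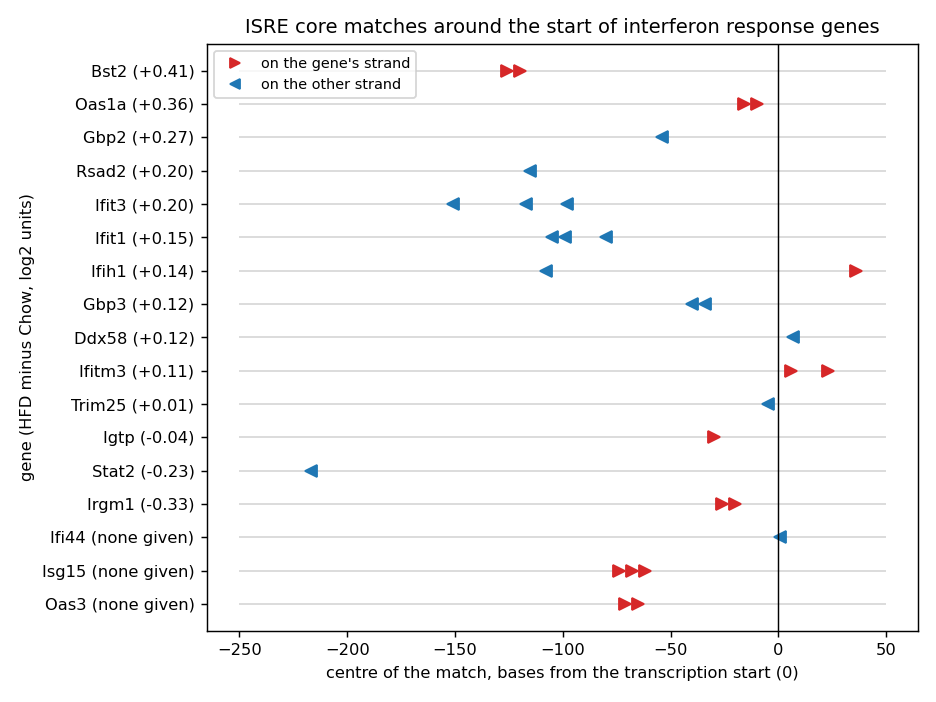
Each row is 1 interferon response gene with an ISRE core match in a RefSeq window. Rows are sorted by the HFD minus Chow difference in brackets (log2 units, 1 array per diet), and Isg15, Ifi44 and Oas3 have none. Triangles mark the centre of each match in bases from the transcription start at 0. Matches lie mostly before the start and occur in genes with positive differences, such as Bst2 (0.41), as well as negative ones, such as Irgm1 (-0.33).

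Glomerular RNA of both diets held signal for most of the list, and the differences between the diets were small. With a floor at each array's median signal (42.3 for HFD and 44.9 for Chow), 31 of the 35 genes were above it on both arrays, Mx2 on the HFD array only, and Oas2, Oas3 and Mx1 on neither. On the arrays' common scale (log2, each array centred on its median), 24 of the 32 genes above the floor were higher in HFD and 8 lower. Of all 11356 genes above the floor, 62.2% were higher by any amount, so most of that count is shared with the array as a whole. The median difference of the list was 0.15 log2 units (1.11-fold), against 0.064 over all genes above the floor. Without centring the values were 0.070 and -0.019, a shift that is the same for every gene by construction.

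Xaf1 and Usp18 were the 2 genes at least 1.5-fold higher in HFD, and 0 genes were at least 1.5-fold lower. The shares of the whole array's genes past that fold were 4.21% higher and 1.41% lower. At 2-fold the list had 0 genes in either direction, against 0.722% higher and 0.159% lower over all genes. Shares of this size in a list of 32 do not set it apart from the array. Both 1.5-fold calls were lost (0 genes) without centring, with quantile normalization and with a loess fit, where Usp18 stood at 0.52 to 0.57 log2 units and Xaf1 at 0.53 to 0.57.

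Because no replicate exists, differences were set beside the scatter of genes of like signal, which mixes technical noise and real differences. With the genes in 10 bins of signal, this scatter (scaled median absolute deviation) ran from 0.37 log2 units in the dimmest to 0.14 in the brightest. Among the 31 genes above the floor on both arrays, 11 lay above the scatter around the median of their bin, where 16.0% of all 10824 such genes did. Only 3 lay below it, against 16.7% of all. The 11 were Xaf1, Usp18, Oasl1, Ifnar2, Irf7, Dhx58, Bst2, Oasl2, Oas1a, Gbp2 and Ifngr1, and the 3 were Irgm1, Irf9 and Irf1.

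**Figure D2:**
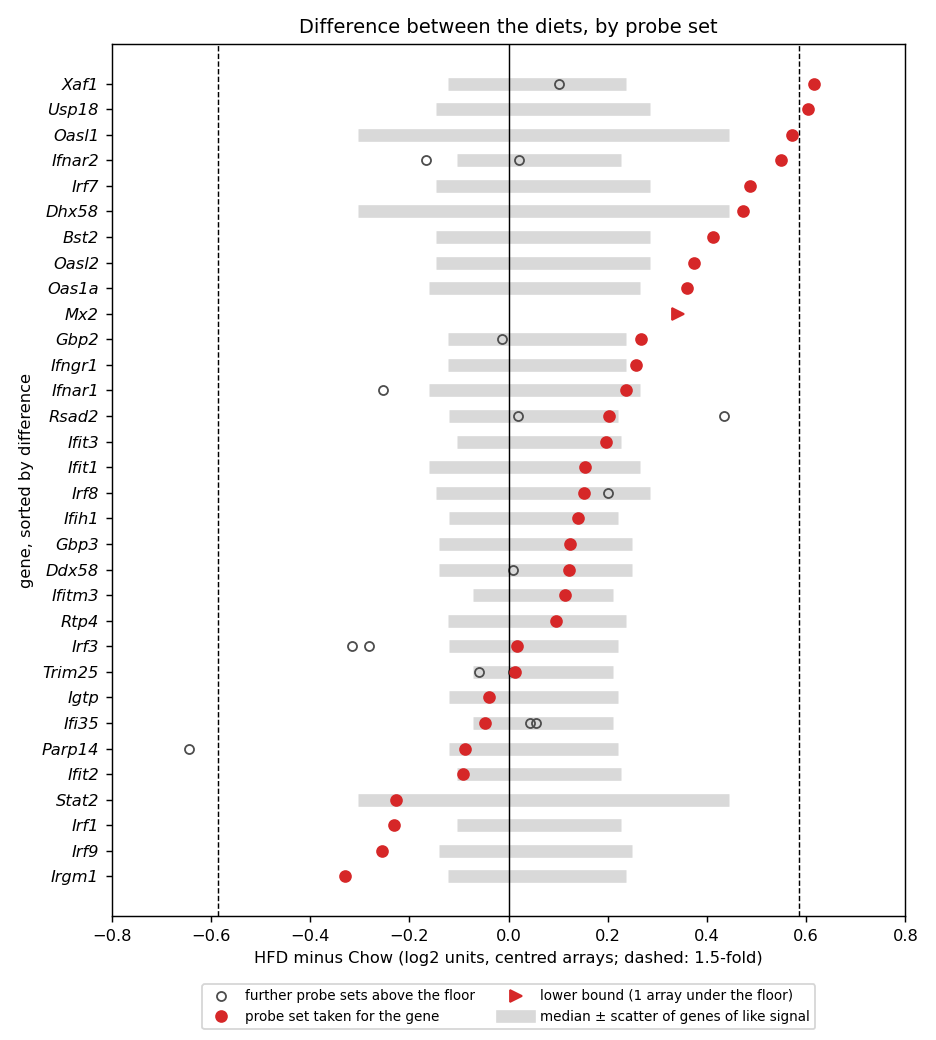
HFD minus Chow difference (log2 units, 1 array per diet) for each of the 32 genes above the floor, with the probe set taken for the gene in red, its further probe sets as open circles, and the grey bar the median plus or minus the scatter of genes of like signal. Xaf1 (0.62) and Usp18 (0.60) lie past the dashed 1.5-fold line, Irgm1 (-0.33) is lowest, and the triangle for Mx2 is a lower bound.

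Among the sensors of viral RNA, Dhx58, which encodes the regulatory helicase LGP2, had the largest difference. Its signal was 61.4 in HFD and 46.9 in Chow, a difference of 0.47 log2 units where the scatter was 0.37. That signal is close to the floor, and its other 2 probe sets were under it. Ifih1, encoding the sensor MDA5, gave 1098 in HFD and 1056 in Chow. Ddx58, encoding the sensor RIG-I, gave 521 and 507. Both differed by less than the scatter (0.14 and 0.12), as did Trim25, the ubiquitin ligase that activates RIG-I, with 3742 and 3929 (0.013).

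Receptor chains were higher in HFD by their leading probe sets, but the probe sets of the type I receptor chains gave mixed signs. Ifnar2, a chain of the type I receptor, gave 1965 in HFD and 1422 in Chow. Ifnar2 thus stood 1.46-fold higher, or 0.55 log2 units against a scatter of 0.17. Its other 2 probe sets differed by 0.020 (306 and 320) and -0.17 (197 and 234), so the difference rests on 1 of 3 probe sets. Ifnar1 was at 482 and 433 (0.24), while another of its probe sets was lower (109 and 138, -0.25). For Ifngr1, the ligand-binding chain of the interferon gamma receptor, the signals were 800 and 710 (0.26, 1 probe set).

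Transcription factors of the pathway were split, with 3 higher and 3 lower. Irf7 gave 309 in HFD and 234 in Chow, 1.40-fold higher (0.49 log2 units, scatter 0.22, 1 probe set). Irf1, an early factor induced strongly by interferon gamma, gave 1445 and 1798 and was lower (-0.23, scatter 0.17). Irf9, the DNA-binding partner of Stat2, was lower too, at 479 and 605 (-0.25, scatter 0.20).

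Irf7 thus stood higher and Irf9 lower on the same arrays. Stat2 gave 82.8 and 103, a difference of -0.23 that was within the scatter of such dim genes (0.37). Irf8, a factor of myeloid cells, was at 283 and 270 (0.15), and its second probe set differed by 0.20. The constitutive factor Irf3 was at 1401 and 1466 (0.018), while 2 further probe sets above the floor stood at -0.32 and -0.28. Its sign turned in 5 of 9 alternatives.

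OAS family genes, whose products make the 2′-5′ oligoadenylates that activate RNase L or are relatives of such enzymes, were higher in HFD for the 3 of the 5 listed that were above the floor. Oasl1, a translational repressor of Irf7, gave 82.3 in HFD and 58.7 in Chow, 1.49-fold higher (0.57 log2 units, scatter 0.37). Oasl2 gave 353 and 289 (0.37), and Oas1a 451 and 373 (0.36), against scatters of 0.22 and 0.21. Each has 1 probe set, so none has a check within the array. Oas2 (30.2 and 32.1) and Oas3 (9.86 and 4.86) were under the floor on both arrays. Oasl1, Oasl2 and Oas1a kept their direction in the scaling alternatives, with medians of 0.29 to 0.34 there. Outside the 37, Oas1b was higher (57.9 in HFD and 45.0 in Chow, 0.45) and Oas1c lower (70.6 and 86.4, -0.21, and lower in every alternative), so the wider family had both signs. These 2 were named after their values were seen.

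Usp18, which removes the ubiquitin-like protein ISG15 from its targets and blocks the type I receptor, gave 294 in HFD and 205 in Chow. This is 1.52-fold, or 0.60 log2 units, against a scatter of 0.22. Xaf1, encoding a pro-apoptotic binding partner of XIAP, gave 905 and 626, which is 1.53-fold (0.62, scatter 0.18). The second Xaf1 probe set was above the floor in HFD only, at 45.4 and 37.6, with a lower bound of 0.10. Over the 9 alternatives Xaf1 ran from 0.36, with the median over its probe sets, to 0.62.

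The IFIT genes, cytoplasmic proteins that bind viral RNA and are among the most strongly induced targets of type I interferon, hardly differed. Ifit1 was at 451 in HFD and 429 in Chow (0.15), Ifit3 at 1989 and 1838 (0.20), and Ifit2 at 1437 and 1623 (-0.092). All 3 were within the scatter of genes of like signal. The list thus held both signs within this family.

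Membrane-associated antiviral proteins were higher by amounts that differed between genes. Bst2, encoding tetherin, which holds budding virions at the cell surface, gave 268 in HFD and 213 in Chow, 1.33-fold higher (0.41 log2 units, scatter 0.22). Rsad2, encoding viperin, was at 1460 and 1344 (0.20), with further probe sets at 0.020 and 0.43. Ifitm3, which blocks virus entry at endosomes, had signals of 11380 and 11142 (0.11, scatter 0.14). Signals of different probe sets depend on probe affinity, so these levels give no order among genes.

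GTPases induced by interferon had 3 genes higher and 2 lower in the list, with a median of 0.12. Of the dynamin-like Mx genes, Mx1 was under the floor on both arrays (9.32 and 5.86), and Mx2 (53.6 and 34.0) passed it in HFD only, at least 1.27-fold higher. Gbp2, a guanylate-binding protein that attacks pathogen vacuoles, gave 896 and 788 (0.27), but its second probe set differed by -0.013, and the sign turned when probe sets shared between transcripts were left out. Gbp3 gave 530 and 516 (0.12). Outside the 37, Gbp7 was higher (1735 and 1535, 0.26) with another probe set of the opposite sign, and Gbp6 was lower (181 and 203, -0.079) by both of its probe sets above the floor. The 4 guanylate-binding proteins had a median of 0.19, which became -0.013 without shared probe sets.

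Immunity-related GTPases, which interferon gamma induces strongly in mice, had lower signal in HFD in the genes measured, some of it by little. Irgm1 gave 660 in HFD and 880 in Chow, a difference of -0.33 log2 units against a scatter of 0.18. Igtp, also called Irgm3, gave 977 and 1064 (-0.039), which is within the scatter. From the list of related genes outside the 37, Irgm2 (614 and 883, -0.44), Iigp1 (1031 and 1337, -0.29, with its second probe set also lower) and Ifi47 (909 and 1009, -0.067) were lower as well. The median of these 5 genes was -0.29, and over the 9 alternatives it ran from -0.37 to -0.18, with all 5 lower in the main setting and without centring. The family was put together from both lists after its values were seen. None of the 5 reached 1.5-fold, and a difference from the guanylate-binding proteins was not tested.

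Of the remaining genes, Ifi35 was at 2681 and 2936 (-0.048), with both further probe sets slightly positive (0.055 and 0.042). Rtp4, a chaperone of receptor trafficking, gave 742 and 736 (0.096). Parp14, an ADP-ribosyltransferase of the macrophage response, gave 1019 and 1147 (-0.087). Its second probe set, with 42.4 and 70.2 close to the floor, differed by -0.65. These values lie within the scatter apart from that dim probe set.

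Agreement between probe sets was limited. For the 11 genes with further probe sets above the floor, 8 of 16 further probe sets had the direction of the leading one, and in 5 of the 11 genes all did. Some disagreements involved a value near 0, as for Gbp2 (0.27 and -0.013), and others did not, as for Ifnar1 (0.24 and -0.25). Why probe sets disagreed was not tested. Of the 11 genes above the scatter, Xaf1, Ifnar2 and Gbp2 had such a check, and Xaf1 alone agreed throughout.

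**Figure D3:**
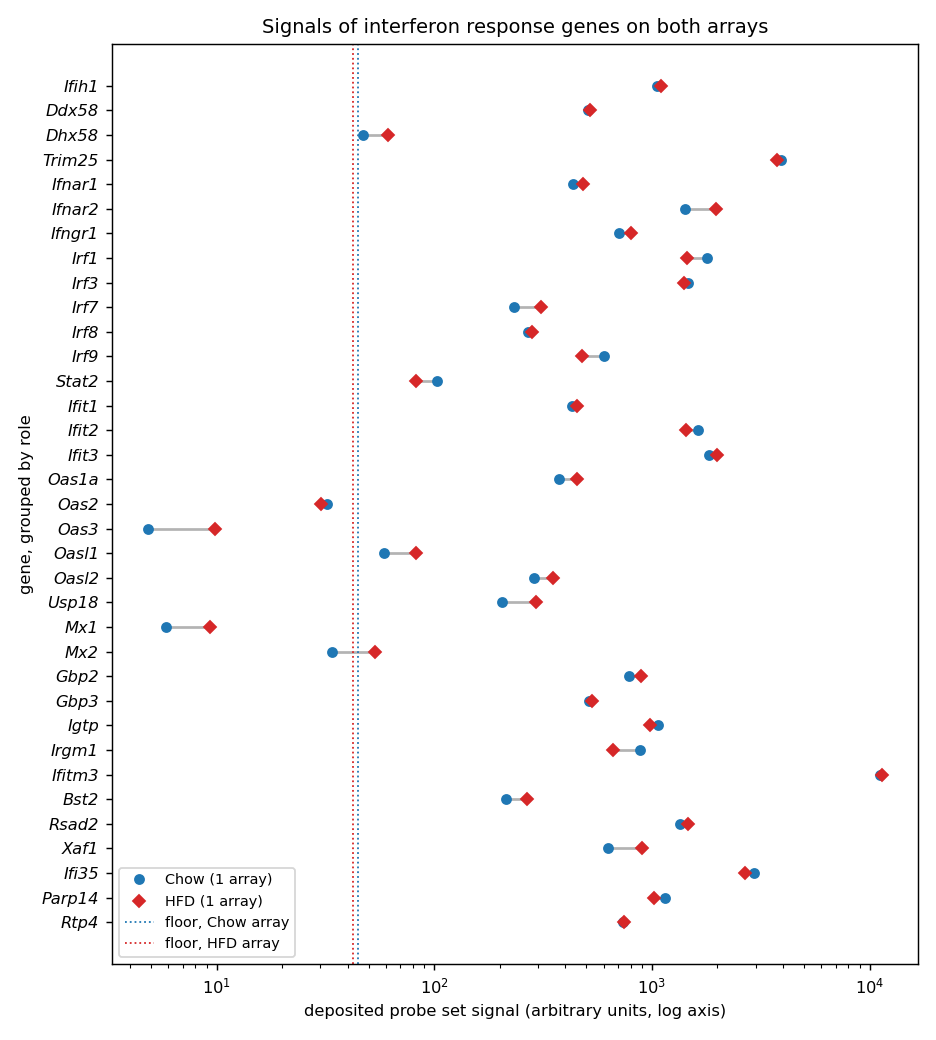
Deposited signal (arbitrary units, log axis) of the 35 interferon response genes on the Chow array (circles) and the HFD array (diamonds), 1 array per diet, with dotted lines at each array's floor. Paired symbols nearly coincide for most genes, such as Ifitm3 (11142 and 11380), and separate to the right for Usp18 and Xaf1 and to the left for Irgm1. Gaps are wider still for dim genes under the floor, such as Oas3 (4.86 and 9.86) and Mx1 (5.86 and 9.32).

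Other parts of the pathway came from lists of related genes. None of the 10 interferon ligand genes with a probe set, among them Ifnb1 (22.0 in HFD and 17.4 in Chow) and Ifng (0.625 and 3.75), was above the floor on either array. Of 6 other receptor chains, Janus kinases and STATs, 5 were higher, led by Ifngr2 (400 and 325, 0.38), the second chain of the interferon gamma receptor. Jak1 differed by 0.13 and Stat3 by 0.17. The median of these 6 was 0.12, and 0 reached 1.5-fold.

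Sensors and adaptors had a median of 0.12 (8 genes, 5 higher, 0 at 1.5-fold). Tlr7, the endosomal sensor of single-stranded RNA in plasmacytoid dendritic cells, B cells and macrophages, gave 616 in HFD and 460 in Chow (0.50), while Mavs, the mitochondrial adaptor of RIG-I, was lower (439 and 594, -0.35), though not by its other probe set. Myd88, the adaptor of Tlr7, stood at 0.28. Of the other interferon regulatory factors, Irf2 was lower (-0.16) and Irf5 higher, at a bound of 0.32. The corepressors that bind Irf2 stood at -0.13 (Irf2bp1) and -0.096 (Irf2bp2), the latter with a changed sign for the probe set median.

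Restrainers of the signal held the 2 largest differences of the pathway lists. Ptpn6, encoding the phosphatase SHP-1 of blood cells, gave 201 in HFD and 84.0 in Chow, 2.54-fold higher. Ptpn2, a phosphatase that acts on Janus kinases and STATs, gave 2391 and 1446, 1.75-fold higher in its leading probe set, and 1 of 2 further probe sets agreed. Socs3 was at 889 and 1087 (-0.21) in its leading probe set, but 0 of 2 further probe sets shared that sign, and it reached 0.97 under an alternative, so its direction is not settled. The 9 measured restrainers had a median of 0.12, with 7 higher. Over the alternatives the lowest value of Ptpn6 was 0.11 and that of Ptpn2 0.33.

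The list of 40 further interferon-stimulated genes had a median near that of the 37 and shares near those of the array. Of 33 that passed the floor, 23 were higher, where 62.2% of all genes were. Past 1.5-fold, 2 were higher and 0 lower, against 4.21% and 1.41% of all genes. The median of the 33 was 0.14, against 0.064 over all genes. Slfn2, a regulator of leukocyte quiescence, gave 161 in HFD and 110 in Chow (0.64). Sp100, a nuclear body protein, gave 254 and 191 (0.50, but as low as 0.012 under an alternative). Ifitm10, the other gene past 1.5-fold, gave 150 and 101 (0.66), and whether interferon induces it was not tested here. Of the chemokines that interferon induces, Cxcl10 alone was above the floor, at 69.6 and 88.1 (-0.26), and 6 others were under it. Genes of MHC class I presentation and the immunoproteasome, also targets of interferon, had 13 of 15 higher, where 62.2% of all genes were. Their median was 0.11, with Psmb10 at 0.32, Tap2 at 0.28 and Tapbp at 0.27, while Nlrc5 (-0.11) and Calr (-0.042) were lower. Without centring 10 of the 15 were higher, and the median was 0.029, against -0.019 over all genes.

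Markers of other cell types moved with the diets on the same arrays. In bulk RNA, more cells of a type and more RNA per cell cannot be told apart. Of 26 macrophage and myeloid markers, 23 passed the floor. HFD signal was higher for 22 of them, for 17 past 1.5-fold. Fcer1g was lower (-0.16). Of the 23, 17 were above the floor on both arrays, and the values of the others are bounds. The median of the 23 was 1.12 log2 units, led by the MHC class II presentation genes H2-Eb1 (821 and 224) and Cd74 (830 and 246). Over the 9 alternatives this median ran from 0.62 to 1.25. Single markers moved more. Laptm5 went from 1.77 to -0.91 without shared probe sets, Cybb fell from 1.79 to as low as 0.050, and C1qc rose from 0.79 to as high as 3.13. The summed signal of all 26 was 10594 in HFD and 6331 in Chow, and Itgam, Fcgr1 and Aif1 were under the floor. Tlr7, Ptpn6, Irf8, Slfn2 and Bst2 are also expressed by such cells, and the part of these cells in the interferon values was not tested. Summed over the 35 interferon response genes, the signal was 39346 and 38863.

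Proximal tubule markers (18 of 19 higher, median 0.56, with Slc22a6 at 1.21 and Cyp2e1 at 0.97) and those of later nephron segments, from the loop to the collecting duct (10 of 12 higher, median 0.56, with Slc12a3 and Calb1 at 0.82 to 0.83) were higher too. Their summed signals were 26585 in HFD and 19323 in Chow for the proximal list, and 9164 and 6565 for the distal one. Endothelial markers had a median of 0.19, with 14 of 18 higher and 4 lower (summed signal 85486 and 82883). Vwf, a dim gene (116 and 52.8), stood at 1.22 and alone passed 1.5-fold. Plvap stood at 0.50, and Erg was lowest in its leading probe set (-0.22). Mesangial markers had a median of 0.14, with 7 of 11 higher and 4 lower (34623 and 34307). Fhl2 stood at 0.46 and Mcam at 0.40, and Pdgfrb was lowest in its leading probe set (-0.12).

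All 15 podocyte markers with a probe set were above the floor, as the glomerular label requires, with 12 lower in HFD and a median of -0.064 (summed signal 81863 and 91816, with Thsd7a at -0.42 and Clic5 at -0.25). Plasmacytoid dendritic cells, the main makers of type I interferon in blood, left little trace. Their marker Siglech was under the floor (12.1 and 17.1), and Tcf4, Klk1 and Cox6a2, which other cells also express, were the 3 of 7 above it (median 0.042). Of 8 neutrophil markers 2 were above the floor on 1 array each, S100a8 at a bound of -0.53 and Csf3r at 0.31. Of 14 lymphocyte markers 3 were above it, with Ighm at 0.54, Jchain at 0.36 and Cd8a lower at -0.18. The 3 control probe sets of beta-actin were higher in HFD by 0.14 to 0.28, a range that spans the interferon list's median of 0.15. The 3 of Gapdh were higher by 0.20 to 0.28, all above that median.

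**Figure D4:**
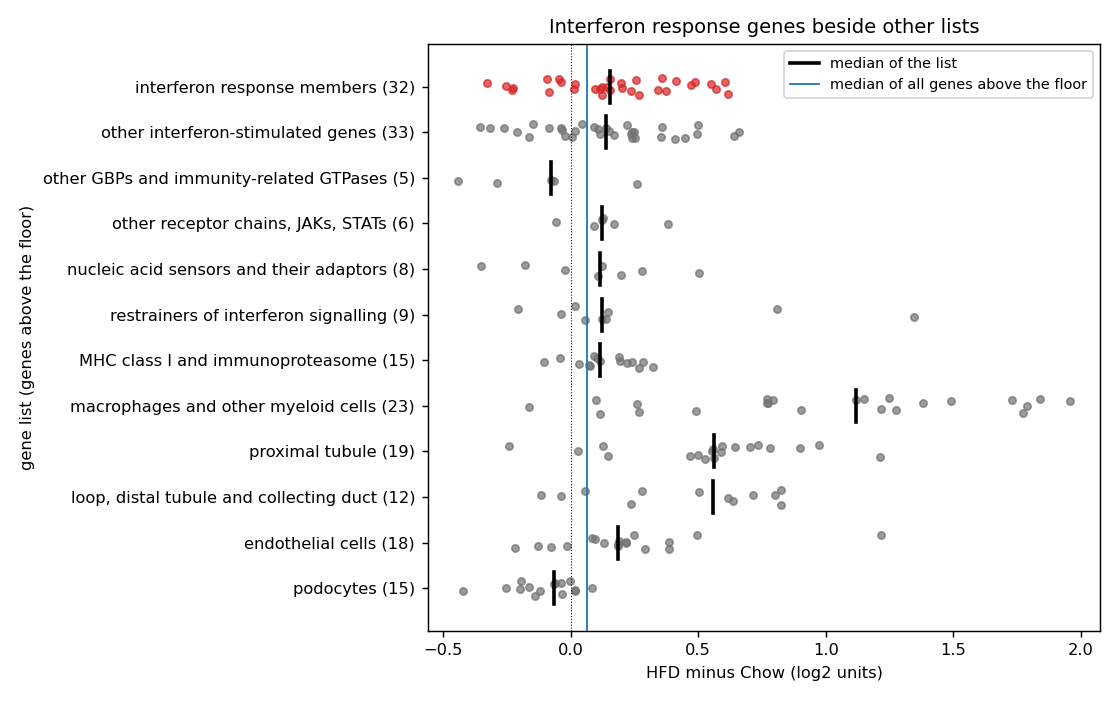
HFD minus Chow difference (log2 units, 1 array per diet) of each gene above the floor (points), with the number of genes in brackets and the list median as a black bar. The interferon response genes (median 0.15) spread around the blue line at the median of all genes (0.064), whereas the myeloid (1.12) and tubule lists (0.56) lie to its right.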

How the data were processed

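Total RNA of isolated glomeruli was purified on Qiagen RNeasy columns and labelled by two-cycle amplification, per the labels' protocols. The deposited values are linear probe set intensity values, 1 column per array, already near a common scale. The authors compared the diets in GeneSpring 7.3.1, per the design text. Probe summarisation, background correction and scaling are not given in the sources used here.

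Log2 values were centred on each array's median over the 45037 probe sets that are not controls, which added 0.083 to every HFD minus Chow difference. Signals under the 50th percentile were raised to it, so a gene above it on 1 array has a bound. The file holds no detection calls, and 2 arrays limit the precision. Annotation of the platform from 2016 gave 34945 of these a single symbol, 932 several and 9160 none. Genes at least 1.5-fold different or brightest were to be described in full, with up to 3 genes per pathway list and 2 per marker list by largest difference; other names were added after their values were seen. The members and lists were chosen with earlier results of these data known. Python 3.11.15 and pandas 2.3.3 were used, and the code was tested on simulated data. Alternatives changed the scaling (none, quantile, loess with span 0.3), the floor (30th or 70th percentile, none, or the 25th percentile added instead) and the probe sets (their median, or shared ones left out).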

Additional observations from a re-analysis of the deposited data

How the results depend on the processing

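No replicate could be left out, since each diet has 1 array. No paired analysis was possible because each diet has 1 array and no test was made. The list's median ran from 0.070 (no centring) to 0.15 over the 9 alternatives, while the median of all genes ran from -0.019 to 0.067. The count of genes at least 1.5-fold higher was 0 without centring (2.93% of all genes), with quantile normalization (3.85%) and with loess (3.95%). It was 1 with the probe set median (3.92% of all genes) and 5 with no floor (15.3%). The count at least 2-fold higher was 1 with no floor (9.14% of all genes), from Oas3, whose signals are under the floor otherwise. The count at least 1.5-fold lower was 0 throughout, where 0.722% (floor at the 70th percentile) to 11.9% (no floor) of all genes passed. Of the 32 genes with a difference, 27 kept their sign, and Trim25, Irf3, Ifnar1, Gbp2 and Ifi35 did not. Amplified RNA, single arrays and dim signals limit every value. The scatter of 0.37 log2 units holds for the dimmest genes only and was smaller for brighter ones. Of the 31 genes above the floor on both arrays, 17 lay within the scatter of their own bin (54.8%, against 67.3% of all such genes).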
